A study of Mus musculus with 8 samples.

Results

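The Toll-like receptor (TLR) genes Tlr1, Tlr2, Tlr3, Tlr4, Tlr5, Tlr6, Tlr7, Tlr8, Tlr9 and Tlr13 were followed in murine bone marrow-derived macrophages (Mϕ; BMDMs) that did or did not engulf apoptotic cells and did or did not receive LPS/IFNγ. They were chosen by name, as the rows whose Ensembl identifier carries 1 of these symbols in the mouse GENCODE annotation, which gave 10 of the 55359 genes listed.

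TLRs are membrane proteins whose leucine-rich repeats bind microbial molecules and whose cytoplasmic TIR domain recruits signaling adaptors. The products of Tlr1, Tlr2, Tlr4, Tlr5 and Tlr6 act mainly at the cell surface on lipoproteins, LPS and flagellin, while those of Tlr3, Tlr7, Tlr8, Tlr9 and Tlr13 act in endosomes on nucleic acids. In Mϕ they start the NF-κB, MAP kinase and interferon responses, and endosomal TLRs share their compartment with the nucleic acids of engulfed cells.

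The study asked how engulfment of apoptotic cells (efferocytosis) alters the inflammatory response of Mϕ, and measured total RNA after depletion of rRNA in 4 groups with n = 2 samples each. All samples were C57BL/6 wildtype BMDMs from femurs of adult mice of both sexes, grown with M-CSF and GM-CSF at 20 ng/mL each, for 7 days according to the labels and 6 days according to the methods. Ctrl BMDMs were naïve and unstimulated, and LPS BMDMs were naïve and received 100 ng/mL LPS with 100 U/mL murine IFNγ for 6 h. Eff BMDMs were kept from day 6 for 16 h with 5 apoptotic NIH-3T3 caspase activatable (CA) fibroblasts per Mϕ in 10 nM dimerizer, the drug that triggers death of this clonal mouse line, and LPSEff BMDMs were treated alike, washed and then stimulated as the LPS samples were for 6 h. At harvest, CD45-positive cells were isolated with magnetic beads, and since the fed cells are murine too, a read does not tell which cell it came from. Below, values are listed for samples 1 and 2 of each group in this order, and the depth was 3481288 and 12020918 recovered reads (Ctrl), 6548938 and 9344411 (LPS), 7517814 and 9745287 (Eff) and 11267193 and 7472370 (LPSEff). Values are normalized counts, read counts divided by a size factor per sample, and 3 reads amounted to between 1.73 and 5.71 normalized counts, a floor that covers counting error only. Neither the labels nor the methods say whether the samples of a group are separate cultures or animals, so that p-values measure only the spread between these samples.

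All 10 TLR genes passed the filter of a mean of at least 10 normalized counts, as did 16309 genes in all. The other known mouse TLR genes, Tlr11 and Tlr12, stayed under it, with 0 to 6.94 normalized counts of Tlr11 and 3.81 to 14.2 of Tlr12 in a sample. The Mϕ label was checked against 8 markers (Ptprc, Adgre1, Csf1r, Cd68, Itgam, Fcgr1, Lyz2 and Mertk), of which 8 passed the filter and 0 were at 0 in every sample. Their sum was 109501 and 110660.0 normalized counts (Ctrl), 87544 and 105165 (LPS), 103428 and 132142 (Eff) and 94664 and 141156 (LPSEff). The sum was lowest in LPS 1 and highest in LPSEff 2, and lysozyme (Lyz2) was the most abundant marker per kb, with 83920.5 and 78661 normalized counts (Ctrl), 54327 and 65837 (LPS), 79114 and 103975 (Eff) and 63473 and 94077 (LPSEff). Lyz2 made up most of the sum, and without it the sum was 25581 and 31998 normalized counts (Ctrl), 33216 and 39328 (LPS), 24313 and 28167 (Eff) and 31191 and 47079 (LPSEff), lowest in Eff 1 and with LPS above Ctrl without overlap. The lists for B cells (5 genes) and for T or NK cells (6 genes) had 0 genes past the filter, with sums of at most 29.7 and 20.7 normalized counts in a sample and with Cd79b and Cd4 as their most abundant genes per kb, 0 of their genes at 0 in every sample, and Ncr1 and Klrb1c at no more than 3 reads.

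Levels of different genes were compared as normalized counts per kb of exons. Tlr2, the receptor for bacterial lipoproteins in pairs with Tlr1 or Tlr6, led with a mean level of 1023 normalized counts per kb over the 8 samples. It was followed by Tlr13, a sensor of bacterial ribosomal RNA, at 263, by the sensor of single-stranded RNA Tlr7 at 201, and by the LPS receptor Tlr4 at 164. Below these stood Tlr8 at 66.4, the sensor of unmethylated CpG DNA Tlr9 at 62.1, Tlr1 at 47.5 and the sensor of double-stranded RNA Tlr3 at 39.3 normalized counts per kb. Tlr6 at 22.6 and the flagellin receptor Tlr5 at 2.07 closed the order. With the longest transcript as length, 7 of 10 genes held their place, with Tlr4 moving ahead of Tlr13 and Tlr7. Leaving out Ctrl 1, Eff 1 or Eff 2 exchanged Tlr8 and Tlr9, and leaving out LPS 2 exchanged Tlr9 and Tlr1, so that 8 of 10 held their place.

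The order differed by group. In naïve unstimulated Mϕ, the levels (mean ± SD, n = 2) were 408 ± 25.5 normalized counts per kb for Tlr2, 341 ± 4.68 for Tlr13, 204 ± 2.35 for Tlr4 and 155 ± 10.6 for Tlr7. Here 2 of 9 neighbours in the order overlapped, Tlr9 with Tlr1 and Tlr6 with Tlr3. In stimulated naïve Mϕ, Tlr2 stood at 1299 ± 385, Tlr7 at 216 ± 23.2, Tlr13 at 183 ± 75.0, Tlr9 at 136 ± 75.6 and Tlr4 at 126 ± 11.7 normalized counts per kb. There 4 of 9 neighbours overlapped, namely Tlr7 with Tlr13, Tlr13 with Tlr9, Tlr9 with Tlr4, and Tlr3 with Tlr1. Efferocytic unstimulated Mϕ had Tlr2 at 407 ± 97.0, Tlr13 at 312 ± 14.4, Tlr4 at 188 ± 27.4, Tlr7 at 183 ± 7.22 and Tlr9 at 16.8 ± 3.48 normalized counts per kb, with 2 of 9 neighbours overlapping (Tlr4 with Tlr7 and Tlr1 with Tlr9). In efferocytic stimulated Mϕ, Tlr2 reached 1977 ± 117, ahead of Tlr7 at 249.7 ± 27.8 and Tlr13 at 215 ± 50.8, while Tlr5 was at 0.483 ± 0.149 normalized counts per kb. In that group 4 of 9 neighbours overlapped, Tlr7 with Tlr13, Tlr3 with Tlr8, Tlr8 with Tlr9, and Tlr9 with Tlr6.

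**Figure D1:**
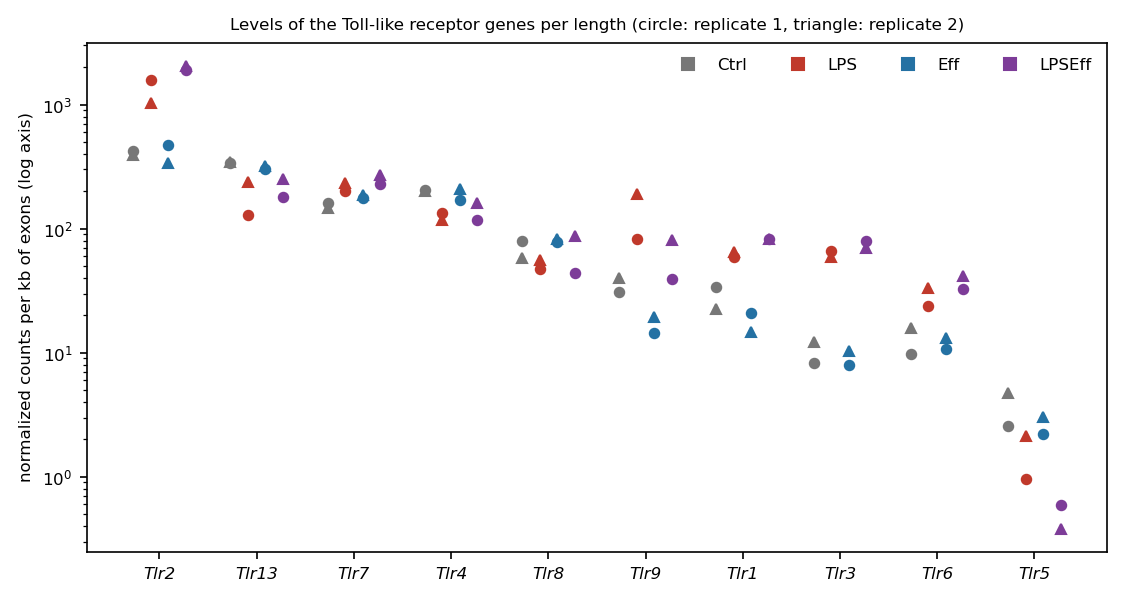
Level of each TLR gene in each sample, in normalized counts per kb of exons on a log axis, with genes ordered by their mean over the 8 samples, colors for the groups, and circles and triangles for samples 1 and 2. Tlr2 is highest in each sample, with a mean of 1023, and Tlr5 is lowest, with a mean of 2.07.

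Both comparisons of stimulated with unstimulated Mϕ asked which receptor genes respond to LPS/IFNγ, in naïve Mϕ (LPS vs Ctrl) and in efferocytic Mϕ (LPSEff vs Eff). The receptors for lipoproteins Tlr1, Tlr2 and Tlr6 and the endosomal Tlr3 and Tlr9 rose in both. Tlr4 and Tlr13 fell in naïve Mϕ, and Tlr5 fell in efferocytic Mϕ, where its LPSEff samples held 5 and 2 reads. Changes are log2 fold changes of the normalized count plus 1 from limma, and a gene was called at an adjusted p under 0.05 over all 16309 tested genes. In LPS vs Ctrl, 5 of 10 members were called higher against 12.4% of the tested genes, and 2 of 10 were called lower against 11.6%. In LPSEff vs Eff, 5 of 10 were called higher against 10.7%, and 1 of 10 was called lower against 8.95%. The median change of the members was 0.82 in naïve and 1.03 in efferocytic Mϕ, where the medians of all tested genes were −0.01 and 0.01. The count in LPS vs Ctrl went from 7 to 3 without Ctrl 1, 3 without Ctrl 2, 4 without LPS 1, 3 without LPS 2 and 4 with only the compared groups in the fit. The count in LPSEff vs Eff went from 6 to 3 without Eff 1 and to 3 without LPSEff 2. Samples rescaled to equal totals moved the median of all tested genes to −0.40 in LPS vs Ctrl and −0.44 in LPSEff vs Eff, and rises made up 24.8% and 21.8% of all calls instead of 51.5% and 54.6%. Of the members, 5 were then called in LPS vs Ctrl and 8 in LPSEff vs Eff, beside 5735 and 5578 of the 16309 tested genes. With the replicate number as a block, 8 members were called in each, beside 6717 and 6033 of all tested genes. The main fit called 3910 and 3213 of them.

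Tlr2 had 2344 and 2146 normalized counts (Ctrl), 8638 and 5645 (LPS), 2617 and 1863 (Eff) and 10415 and 11328 (LPSEff). Each stimulated sample lay above each unstimulated sample, and LPSEff lay above LPS without overlap. On the log2 scale, Tlr2 rose by 1.64 (SE 0.26, adjusted p = 0.00310) in naïve Mϕ and by 2.30 (SE 0.26, adjusted p = 0.000710) in efferocytic Mϕ. Both calls held under the 7 other settings and without each of the 8 samples, with adjusted p between 1.97e-07 and 0.0266 in naïve Mϕ and between 1.67e-13 and 0.00709 in efferocytic Mϕ. The difference between both effects was 0.66 (SE 0.37, adjusted p = 1.000) and did not pass.

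Tlr1 and Tlr6 encode the partners of Tlr2 for triacylated and diacylated lipoproteins. Tlr1 had 114 and 75.8 normalized counts (Ctrl), 199 and 219 (LPS), 70.1 and 49.4 (Eff) and 278 and 278 (LPSEff). Its stimulated samples were all higher than its unstimulated ones, both LPSEff samples were the highest and both Eff samples the lowest. Tlr1 rose by 1.16 (SE 0.28, adjusted p = 0.0183) in naïve Mϕ and by 2.22 (SE 0.28, adjusted p = 0.00112) in efferocytic Mϕ. Of the members, it had the smallest p for a difference between both effects, 1.06 (95% interval 0.17 to 1.95, unadjusted p = 0.0254), which did not pass in limma after adjustment (adjusted p = 1.000). The naïve call was lost with samples rescaled to equal totals (0.0711), without Ctrl 2 (0.113), without LPS 1 (0.0527) and without LPS 2 (0.0732), the values in parentheses being adjusted p. Tlr6 had 47.6 and 76.9 normalized counts (Ctrl), 116 and 160.4 (LPS), 51.7 and 64.2 (Eff) and 159 and 203 (LPSEff). Stimulated samples were again above unstimulated ones, while Eff overlapped with Ctrl and LPSEff with LPS. Tlr6 rose by 1.16 (SE 0.32, adjusted p = 0.0309) in naïve Mϕ and by 1.62 (SE 0.32, adjusted p = 0.00902) in efferocytic Mϕ. Its naïve call was lost with only the compared groups in the fit (0.0694), with samples rescaled to equal totals (0.0663), without Ctrl 1 (0.175) and without LPS 2 (0.140), and its efferocytic call without Eff 1 (0.0631) and without LPSEff 2 (0.0594). As a ratio of levels per kb, Tlr6 to Tlr1 was 0.290 and 0.706 (Ctrl), 0.407 and 0.509 (LPS), 0.513 and 0.905 (Eff) and 0.398 and 0.508 (LPSEff). No sample held more Tlr6 than Tlr1 per kb, and the Ctrl samples spanned a range that held both LPS and both LPSEff samples.

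Tlr4 encodes the receptor for LPS itself and had 1439.5 and 1416 normalized counts (Ctrl), 939 and 823 (LPS), 1184 and 1455 (Eff) and 824 and 1133 (LPSEff). Both LPS samples were below both Ctrl samples and both LPSEff samples below both Eff samples, and the efferocytic groups overlapped with their naïve counterparts. Tlr4 fell by 0.70 on the log2 scale in naïve Mϕ (SE 0.21, adjusted p = 0.0445) and differed by −0.44 (SE 0.21, adjusted p = 0.191) in efferocytic Mϕ, which did not pass. The difference between both effects was 0.26 (SE 0.30, adjusted p = 1.000). With 1 sample left out, the efferocytic value ran from −0.67 to −0.21 and the difference from 0.03 to 0.49. The naïve call stood close to the threshold and was lost with no filter on low values (0.0964), with only the compared groups in the fit (0.0677), in DESeq2 (0.0510), without Ctrl 1 (0.163), without Ctrl 2 (0.145), without LPS 1 (0.0788), without LPS 2 (0.152), without Eff 1 (0.0624) and without Eff 2 (0.0615). With equal totals the efferocytic value was −0.89 (adjusted p = 0.0112), past the threshold.

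Tlr5 had the lowest counts, 17.1 and 31.8 normalized counts (Ctrl), 6.47 and 14.2 (LPS), 14.9 and 20.5 (Eff) and 3.96 and 2.54 (LPSEff). The LPSEff samples held 5 and 2 reads, with LPSEff below the LPS samples and these below the Ctrl and Eff samples. The LPSEff mean of 3.25 normalized counts lay under the filter, beside means of 24.5 (Ctrl), 10.3 (LPS) and 17.7 (Eff). The fall of Tlr5 is thus tied in part to the filter. Tlr5 fell by 2.14 on the log2 scale in efferocytic Mϕ (SE 0.59, adjusted p = 0.0365) and differed by −1.19 (SE 0.59, adjusted p = 0.188) in naïve Mϕ, which did not pass, with a difference between both effects of −0.95 (SE 0.83, adjusted p = 1.000). Its efferocytic call was lost with no filter on low values (0.0579), in DESeq2 (0.0614), without Eff 1 (0.110), without Eff 2 (0.180), without LPSEff 1 (0.0927) and without LPSEff 2 (0.142), and with a pseudocount of 5 the value was −1.45 (adjusted p = 0.0469). With 1 sample left out, its naïve value ran from −1.71 to −0.68 and the difference between both effects from −1.46 to −0.43.

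Tlr3, whose product signals through the adaptor TRIF, had 43.8 and 64.8 normalized counts (Ctrl), 354 and 318 (LPS), 42.9 and 55.0 (Eff) and 428 and 377 (LPSEff). No stimulated sample came near an unstimulated one, and LPSEff lay just above LPS. Tlr3 had the largest rise of the members, by 2.63 (SE 0.26, adjusted p = 0.000365) in naïve Mϕ and by 3.02 (SE 0.26, adjusted p = 0.000175) in efferocytic Mϕ. Both calls held in each of the 7 other settings and each of the 8 fits without a sample, with adjusted p of at most 0.00409 and 0.00298. The difference between both effects was 0.39 (SE 0.37, adjusted p = 1.000).

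Tlr9 had 107 and 139.9 normalized counts (Ctrl), 287 and 659 (LPS), 49.9 and 67.0 (Eff) and 137 and 282 (LPSEff). Stimulated samples were above their unstimulated counterparts, LPS 2 was the highest sample by far, and both Eff samples were below both Ctrl samples. Tlr9 rose by 1.82 (SE 0.46, adjusted p = 0.0224) in naïve Mϕ and by 1.75 (SE 0.46, adjusted p = 0.0303) in efferocytic Mϕ, and the difference between both effects was −0.08 (SE 0.65, adjusted p = 1.000). The naïve call was lost without Ctrl 1 (0.121), without Ctrl 2 (0.0682) and without LPS 2 (0.105), and the efferocytic call without Eff 1 (0.145), without Eff 2 (0.0739) and without LPSEff 2 (0.159). Markers of dendritic cells (Flt3, Zbtb46, Ccr7, Cd209a, Xcr1, Clec9a and Dpp4), a cell type that also carries Tlr9, were read beside it: 5 of 7 passed the filter, 0 were at 0 in every sample, and their sum was 2165 and 2922 normalized counts (Ctrl), 8513 and 17213 (LPS), 1368 and 1768 (Eff) and 6886 and 6905 (LPSEff). Of these, Ccr7, which activated Mϕ can express too, was the most abundant per kb with 1839 and 2128 normalized counts (Ctrl), 7649 and 14409 (LPS), 1151 and 1296 (Eff) and 6243 and 5719.9 (LPSEff). Xcr1, named after its values were seen, had 36.2 and 52.6 normalized counts (Ctrl), 119 and 636 (LPS), 28.9 and 45.2 (Eff) and 125 and 338 (LPSEff), with LPS 2 highest. In LPS vs Ctrl 2 of 5 tested dendritic cell markers were called higher (Ccr7 and Xcr1) and in LPSEff vs Eff 1 of 5 (Ccr7), and 5 of 5 had values under 0 in either comparison of efferocytosis (medians −0.70 and −0.81). There limma called 0 and 0, edgeR 0 and 0 and DESeq2 0 and 0, with 1 and 2 at an unadjusted p under 0.05. For plasmacytoid dendritic cells, 2 of 4 genes were tested (0 at 0 in every sample, Klk1 at no more than 3 reads), the most abundant being Tcf4, and the sum was 215 and 408 normalized counts (Ctrl), 1119 and 1730.4 (LPS), 216 and 358 (Eff) and 849.5 and 1067 (LPSEff). Tcf4 was called higher in both LPS/IFNγ comparisons, and limma called 0 of 2 in either comparison of efferocytosis, with 0 in edgeR, 0 in DESeq2 and 0 at an unadjusted p under 0.05. The part of such cells in the Tlr9 values was not tested, and in bulk samples fewer cells of a type and less RNA per cell cannot be told apart.

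Tlr7 had 859 and 779.6 normalized counts (Ctrl), 1059 and 1233 (LPS), 944 and 998 (Eff) and 1219 and 1428 (LPSEff). The values climb in small steps, with stimulated samples above unstimulated ones and Eff above Ctrl without overlap. Tlr7 differed by 0.48 (SE 0.18, adjusted p = 0.0885) in naïve Mϕ and by 0.44 (SE 0.18, adjusted p = 0.125) in efferocytic Mϕ, neither of which passed, and the efferocytic value turned to −0.01 with equal totals, where the naïve value was 0.08 (adjusted p = 0.722). Tlr8, its neighbour on the X chromosome, had 402 and 298 normalized counts (Ctrl), 241 and 282 (LPS), 398 and 417 (Eff) and 222 and 445 (LPSEff). The LPS samples were below the Ctrl samples, and the LPSEff samples lay at the lowest and the highest end of all samples. Tlr8 differed by −0.41 (SE 0.32, adjusted p = 0.418) in naïve Mϕ and by −0.37 (SE 0.32, adjusted p = 0.485) in efferocytic Mϕ, and the efferocytic value was 0.13 without LPSEff 1. The naïve value was −0.19 (adjusted p = 0.808) without Ctrl 1 and −0.62 (adjusted p = 0.363) without Ctrl 2. With equal totals, Tlr8 was at −0.81 (adjusted p = 0.0710) in naïve and −0.82 (adjusted p = 0.0690) in efferocytic Mϕ. The difference between both effects was −0.04 for Tlr7 and 0.04 for Tlr8, the latter −0.01 with equal totals.

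Tlr13 had 1599.5 and 1631 normalized counts (Ctrl), 616 and 1118 (LPS), 1432 and 1529 (Eff) and 849 and 1189 (LPSEff). Stimulated samples were below unstimulated ones in both backgrounds, and LPS 1 was the lowest. Tlr13 fell by 0.96 on the log2 scale in naïve Mϕ (SE 0.29, adjusted p = 0.0448) and differed by −0.56 (SE 0.29, adjusted p = 0.229) in efferocytic Mϕ, which did not pass, with a difference between both effects of 0.40 (SE 0.41, adjusted p = 1.000). The naïve call was lost with no filter on low values (0.0584), with only the compared groups in the fit (0.0825), without Ctrl 1 (0.150), without Ctrl 2 (0.156), without LPS 1 (0.201), without Eff 1 (0.0678) and without Eff 2 (0.0677), and the naïve change was −0.53 without LPS 1. The efferocytic value ran from −0.80 to −0.31 with 1 sample left out, and with equal totals it was −1.01 (adjusted p = 0.0155), past the threshold.

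**Figure D2:**
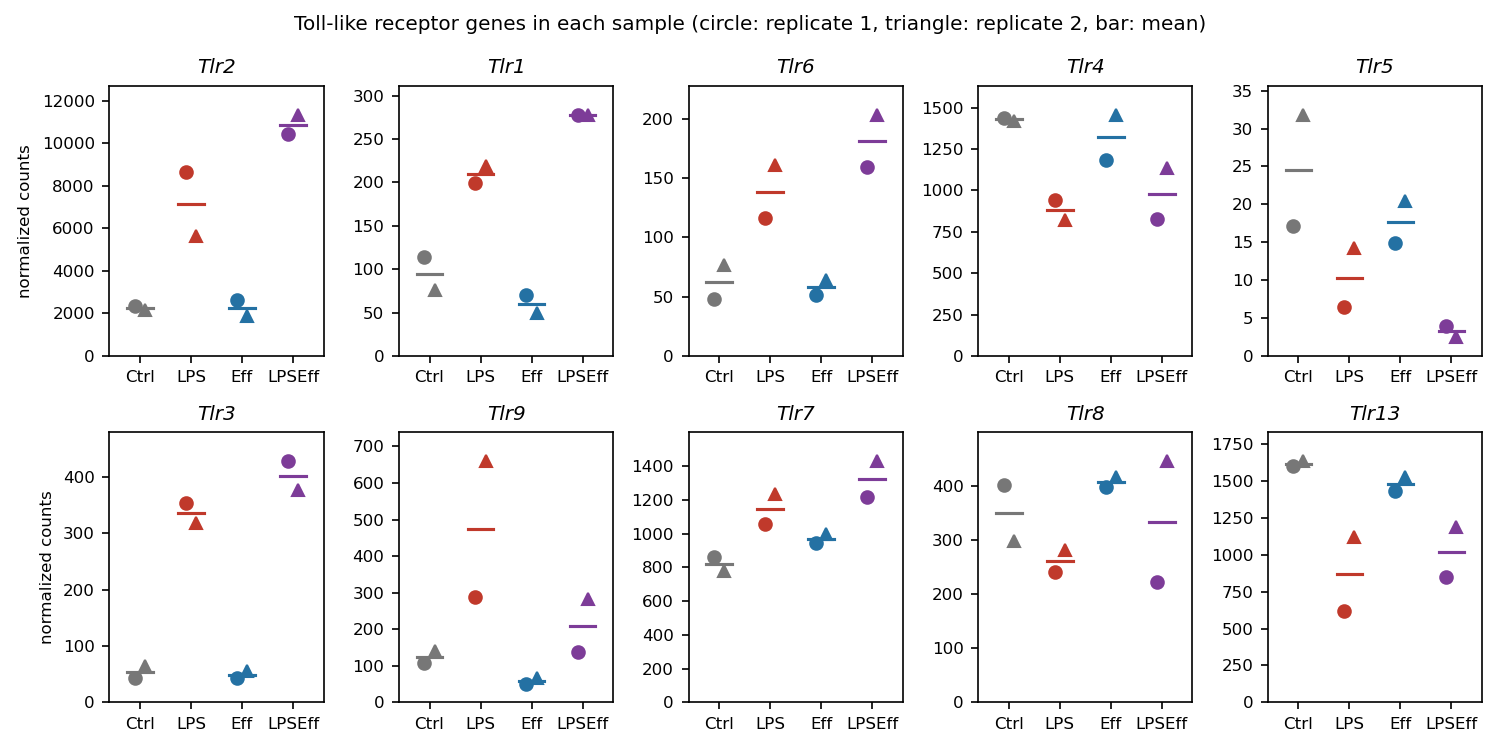
Normalized counts of the 10 TLR genes (a panel each, axes from 0) in the 4 groups, with a circle for sample 1, a triangle for sample 2 and a bar for the mean. The upper row holds the surface receptors and the lower row the endosomal ones; Tlr3 moves from at most 64.8 in unstimulated to at least 318 in stimulated samples, while the Tlr8 groups LPSEff and Eff overlap.

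The comparisons of efferocytic with naïve Mϕ asked whether engulfment alters the receptor genes before (Eff vs Ctrl) and during stimulation (LPSEff vs LPS). No member passed in limma with the 4 group means: 0 of 10 were called in Eff vs Ctrl, against 0.251% of the tested genes, and 0 of 10 in LPSEff vs LPS, against 0.773%. EdgeR and DESeq2 called 0 and 0 in each comparison. At an unadjusted p under 0.05, limma gave 2 of 10 in Eff vs Ctrl (Tlr1 and Tlr9) against 6.13% of the tested genes, and 2 of 10 in LPSEff vs LPS (Tlr2 and Tlr9) against 10.3%. Without overlap between the groups, 1 of 10 was higher in Eff than in Ctrl (Tlr7) against 16.3% of the tested genes, and 3 of 10 were lower (Tlr1, Tlr9 and Tlr13) against 17.8%. In LPSEff against LPS, 3 of 10 were higher without overlap (Tlr1, Tlr2 and Tlr3) against 19.3%, and 2 of 10 were lower (Tlr5 and Tlr9) against 17.0%. The members had a median change of −0.12 without and 0.26 with stimulation, beside −0.01 and −0.00 over all tested genes. With the replicate number as a block, limma called Tlr9 in both comparisons (adjusted p = 0.0367 and 0.0160). That fit called 436 and 1137 of all tested genes. What samples with the same number share is stated in neither labels nor methods.

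Of the 10 members, Tlr9 was the one with values under 0 and an unadjusted p under 0.05 in both of these comparisons. They compare different samples, but both p-values use the spread from 1 fit over all 8 samples and are not independent. Tlr9 was at −1.06 in Eff vs Ctrl (95% interval −2.11 to −0.02, limma adjusted p = 0.801) and −1.14 in LPSEff vs LPS (95% interval −2.19 to −0.09, limma adjusted p = 0.433). With a sample of the compared groups left out, the latter value was −0.54 (adjusted p = 0.895) without LPS 2, −0.63 (adjusted p = 0.930) without LPSEff 1, −1.66 (adjusted p = 0.439) without LPSEff 2 and −1.74 (adjusted p = 0.154) without LPS 1. Tlr1 was at −0.65 (adjusted p = 0.789) before and 0.41 (adjusted p = 0.707) during stimulation, the former −0.36 (adjusted p = 0.999) without Ctrl 1 and −0.95 (adjusted p = 0.511) without Ctrl 2. Its Eff samples lay below the Ctrl samples and its LPSEff samples above the LPS samples. Tlr2 was at −0.02 (adjusted p = 0.999) and 0.64 (adjusted p = 0.446), and Tlr5 at −0.40 (adjusted p = 0.999) and −1.35 (adjusted p = 0.485), in the same order of comparisons. During stimulation Tlr2 was at 0.33 (adjusted p = 0.890) without LPS 2 and 0.94 (adjusted p = 0.184) without LPS 1. With 1 sample left out, the latter value of Tlr5 ran from −1.86 to −0.83. The endosomal Tlr7 was at 0.25 (adjusted p = 0.999) and 0.21 (adjusted p = 0.792), which ran from 0.18 to 0.32 and from 0.09 to 0.32 with 1 sample left out. For the remaining members Tlr3, Tlr4, Tlr6, Tlr8 and Tlr13, the values ran from −0.13 to 0.24 before stimulation and from 0.14 to 0.39 during it. An adjusted p that misses the threshold does not show equal levels, and the 95% intervals of Eff vs Ctrl reached from −1.75 to 0.95 for Tlr5, the widest, and from −0.16 to 0.65 for Tlr7, the narrowest. A difference between the LPS/IFNγ effects of naïve and efferocytic Mϕ was called for 0 of 10 members and for 0% of the tested genes in limma, with 0 in edgeR and 0 in DESeq2. At an unadjusted p under 0.05 it gave 1 of 10 (Tlr1) against 1.91%, and the median of the members was 0.32 beside 0.01 over all tested genes. Since LPS vs Ctrl uses the Ctrl samples of Eff vs Ctrl and the LPS samples of LPSEff vs LPS, and LPSEff vs Eff the other samples of both, these values are not independent of each other.

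**Figure D3:**
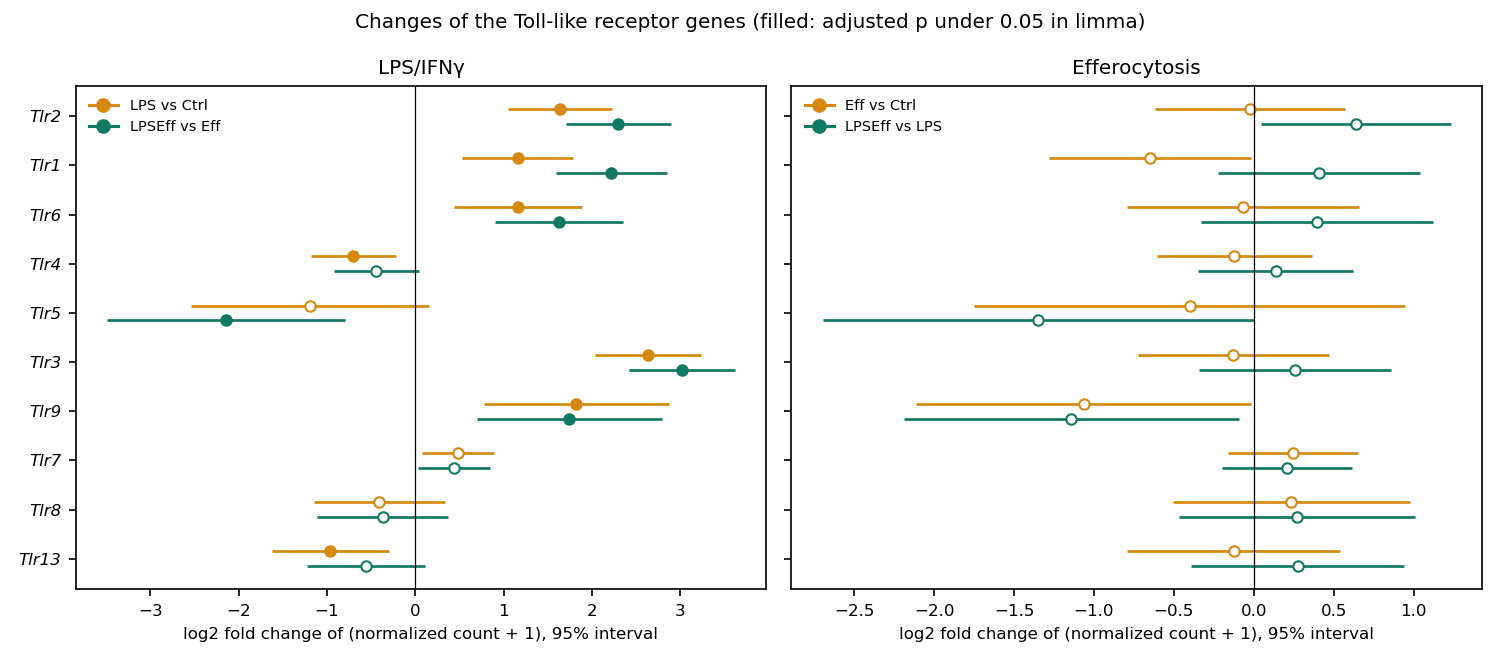
Log2 fold changes of the TLR genes with 95% intervals from limma, for LPS/IFNγ (left, LPS vs Ctrl and LPSEff vs Eff) and for efferocytosis (right, Eff vs Ctrl and LPSEff vs LPS), with filled points where the adjusted p is under 0.05. Filled points are 7 and 6 of 10 on the left, where Tlr7 in LPSEff vs Eff turns to −0.01 with equal totals, and 0 and 0 on the right.

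The make-up of the receptor transcripts differed between stimulated and unstimulated Mϕ. Of the summed level per kb of all 10 members, the surface receptors (Tlr1, Tlr2, Tlr4, Tlr5 and Tlr6) held 52.3 and 51.3 percent (Ctrl), 77.3 and 61.7 (LPS), 53.9 and 48.1 (Eff) and 78.8 and 75.5 (LPSEff). Unstimulated samples lay near an even split between surface and endosomal genes, and each stimulated sample held a larger surface share than each unstimulated one. The larger surface share lay in Tlr2, which by itself held 32.9 and 31.5 percent (Ctrl), 67.9 and 50.9 (LPS), 37.8 and 28.2 (Eff) and 70.2 and 66.3 (LPSEff). Tlr4 held 15.9 and 16.3 percent (Ctrl), 5.79 and 5.82 (LPS), 13.4 and 17.3 (Eff) and 4.36 and 5.21 (LPSEff), lower in each stimulated sample. The other surface genes Tlr1, Tlr5 and Tlr6 each held at most 3.22 percent in a sample. The ratio of Tlr2 to Tlr4 per kb was 2.08 and 1.93 (Ctrl), 11.7 and 8.75 (LPS), 2.82 and 1.63 (Eff) and 16.1 and 12.7 (LPSEff), higher in each stimulated sample than in any unstimulated one. Among the endosomal genes, the ratio of Tlr7 to Tlr9 per kb was 5.28 and 3.66 (Ctrl), 2.42 and 1.23 (LPS), 12.4 and 9.77 (Eff) and 5.84 and 3.33 (LPSEff). It was highest in both Eff samples and lowest in both LPS samples, with the LPSEff range overlapping that of Ctrl. Tlr13 held 26.1 and 27.8 percent (Ctrl), 5.61 and 11.7 (LPS), 24.0 and 26.9 (Eff) and 6.64 and 8.08 (LPSEff), with each stimulated sample below each unstimulated one. Shares of a sum depend on each other, so that a larger share of Tlr2 lowers those of the other members. These shares are descriptions over samples and were given no test.

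The members also differed in how far they varied. Tlr5 is not ranked in this paragraph, since its lowest sample held 2 reads. From its lowest to its highest sample, Tlr9 spanned 13.2-fold and Tlr3 9.96-fold. Tlr4 and Tlr7 spanned 1.77-fold and 1.83-fold. The largest gap between samples of 1 group, on the log2 scale, was 1.20 for Tlr9 in LPS and 1.00 for Tlr8 in LPSEff. For Tlr8 that gap equals its whole range over the 8 samples.

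On GRCm39, Tlr1 (ENSMUSG00000044827) lies at chr5:65082022-65090941 and Tlr6 (ENSMUSG00000051498) at chr5:65108704-65203497, both on the minus strand with 17762 bp and 0 protein-coding genes between them. Of the 50-base windows in Tlr1 transcripts, 14.8% also occur in transcripts of other genes, 13.1% in Tlr6, and of the Tlr6 windows 9.31% occur in Tlr1, so that a read within such a window fits both. In Eff vs Ctrl, Tlr1 was at −0.65 and Tlr6 at −0.07. Tlr7 (ENSMUSG00000044583, chrX:166086758-166113605) and Tlr8 (ENSMUSG00000040522, chrX:166024184-166047325) lie side by side on the minus strand, 39432 bp apart with 0 genes between them, and Tlr13 (ENSMUSG00000033777, chrX:105186810-105204533) lies elsewhere on the X chromosome. Since the mice were of both sexes, the female transcript Xist and the Y-linked Ddx3y, Eif2s3y, Kdm5d and Uty were read: 5 of 5 were tested and 0 were at 0 in every sample. Limma called 0 in all comparisons, with 1 at an unadjusted p under 0.05 in LPS vs Ctrl, 1 in LPSEff vs LPS and 1 in the difference of effects, while edgeR called 1 in LPS vs Ctrl and DESeq2 1 in LPSEff vs LPS. Xist had 343 and 448 normalized counts (Ctrl), 601 and 663 (LPS), 293 and 384 (Eff) and 317 and 270.3 (LPSEff), and Ddx3y, the most abundant of the 5 per kb, had 215 and 199 normalized counts (Ctrl), 235 and 231 (LPS), 224 and 215 (Eff) and 215 and 279 (LPSEff). Each sample thus held RNA of both sexes, and the sum over the 5 genes was 855 and 966 normalized counts (Ctrl), 1174 and 1267 (LPS), 767 and 889 (Eff) and 838 and 869 (LPSEff). Their part in the X-linked members was not tested. Tlr2 (ENSMUSG00000027995) lies at chr3:83743576-83749074, Tlr3 (ENSMUSG00000031639) at chr8:45848702-45864117, Tlr4 (ENSMUSG00000039005) at chr4:66745783-66849936, Tlr5 (ENSMUSG00000079164) at chr1:182782311-182805500 and Tlr9 (ENSMUSG00000045322) at chr9:106099797-106104082. Windows shared with other genes made up 6.99% of Tlr7 and 5.71% of Tlr3, 2.11% or less of Tlr4, Tlr5 and Tlr13, and 0% of Tlr2, Tlr8 and Tlr9, and 0 exon bases of any member overlapped another gene on the same strand.

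Upstream sequence was read for all members with a promoter entry, since LPS and IFNγ act through NF-κB, AP-1 and interferon regulatory factors (IRFs). RefSeq promoter entries on GRCm38.p6 were found for 8 of 10 members (10 entries), and none for Tlr4 and Tlr7. In the 250 bases before each start, on both strands, the motifs searched were AANNGAAA for IRFs (in 21.3% of 32851 promoters), GGANTTNCC for NF-κB (3.15%) and TGANTCA for AP-1 (6.75%). The IRF motif was found in 4 members (Tlr1, Tlr2, Tlr3 and Tlr6), the NF-κB motif in 3 (Tlr2, Tlr3 and Tlr6) and the AP-1 motif in 1 (Tlr9). Counted over the 10 entries instead of members, these numbers were the same. Tlr5, Tlr8, Tlr13 and 1 of both Tlr1 entries held 0 of these motifs. Of the 4 called members whose promoters are shown as 250 bases from 5′ to 3′, Tlr2 (chr3:83841609-83841858, minus strand) held IRF motifs at −191 and −145 and overlapping NF-κB motifs at −172 and −171, and Tlr3 (chr8:45410381-45410630, minus strand) an NF-κB motif at −210 and an IRF motif at −59. Tlr6 (chr5:64959167-64959416, minus strand) held IRF motifs at −239, −116, −110 and −104, the last 3 of which overlap, and Tlr9 (chr9:106222348-106222597, plus strand) an AP-1 motif at −58. The NF-κB motif of Tlr6, at −98, lies in its other entry, which is not shown and held 0 IRF motifs. Capitals mark the motifs, positions count back from the start, and a match describes letters, not binding.
Tlr2: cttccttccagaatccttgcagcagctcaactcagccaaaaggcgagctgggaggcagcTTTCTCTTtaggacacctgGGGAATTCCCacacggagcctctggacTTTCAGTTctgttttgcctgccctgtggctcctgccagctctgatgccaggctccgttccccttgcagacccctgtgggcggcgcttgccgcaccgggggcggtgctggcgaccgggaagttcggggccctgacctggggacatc
Tlr3: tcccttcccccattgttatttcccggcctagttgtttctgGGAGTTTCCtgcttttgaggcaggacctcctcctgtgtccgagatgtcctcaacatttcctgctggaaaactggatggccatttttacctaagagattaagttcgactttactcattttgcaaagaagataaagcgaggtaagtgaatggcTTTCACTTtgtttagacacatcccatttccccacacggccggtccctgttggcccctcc
Tlr6: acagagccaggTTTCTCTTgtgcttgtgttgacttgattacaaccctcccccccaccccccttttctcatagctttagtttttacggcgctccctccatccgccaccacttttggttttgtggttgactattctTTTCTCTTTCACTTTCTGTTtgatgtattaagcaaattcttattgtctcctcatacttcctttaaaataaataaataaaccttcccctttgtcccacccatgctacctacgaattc
Tlr9: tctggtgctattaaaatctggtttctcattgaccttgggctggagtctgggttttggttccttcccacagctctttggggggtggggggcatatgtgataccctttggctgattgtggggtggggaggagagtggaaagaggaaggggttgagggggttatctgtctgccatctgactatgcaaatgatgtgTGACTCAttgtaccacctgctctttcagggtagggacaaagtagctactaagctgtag

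For each member, the tested gene with the most similar profile was found by the root mean square (RMS) difference of centred log2 values over the 8 samples. A shared order of these samples thus follows from the choice and is no further result. Tlr2 was nearest to Hif1a, the hypoxia-inducible transcription factor (RMS difference 0.178), which had 1588 and 1704 normalized counts (Ctrl), 6404 and 4895 (LPS), 1720.1 and 1667 (Eff) and 7353 and 7018 (LPSEff). Hif1a too was higher in each stimulated sample than in each unstimulated one, and highest in LPSEff. Tlr1 was nearest to the processed pseudogene Gm19026 (0.146), Tlr6 to the small GTPase gene Rab12 (0.113), Tlr3 to Ttc39c (0.105) and Tlr9 to Snn (0.201). Snn had 217 and 286 normalized counts (Ctrl), 634 and 1616 (LPS), 77.1 and 159 (Eff) and 325 and 574 (LPSEff). Like Tlr9, it was highest in LPS 2 and lowest in the Eff samples. The RMS difference was 0.0876 for Tlr4 and Natd1, 0.209 for Tlr5 and Igflr1, 0.0579 for Tlr7 and Atl1, 0.132 for Tlr8 and Cir1, and 0.0812 for Tlr13 and Tbccd1. Counts were low for Gm19026 (5.65 to 46.7 normalized counts in a sample), Igflr1 (3.81 to 49.7) and Cir1 (10.3 to 20.3).

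The genes that serve the receptors were read from 8 lists with 84 genes, of which 83 were tested. In LPS vs Ctrl 41 rose and 7 fell, against 12.4% and 11.6% of all tested genes, with a median change of 0.76, and in LPSEff vs Eff 43 rose and 5 fell, against 10.7% and 8.95%, with a median of 0.88, beside −0.01 and 0.01 over all tested genes. These shares stand beside the counts of each list below as well. The count in LPSEff vs Eff went from 48 to 31 without LPSEff 1. Of the 4 co-receptor and ligand delivery genes, Cd14, which hands LPS to Tlr4, rose by 3.15 (adjusted p = 0.000270) in naïve and 2.77 (adjusted p = 0.000512) in efferocytic Mϕ, while 3 were not called in either (list medians 0.14 and 0.82). Cd14 had 1809 and 2056 normalized counts (Ctrl), 23118 and 12722 (LPS), 3010.03 and 2587 (Eff) and 17098 and 21198 (LPSEff), so that the LPS co-receptor was higher in each stimulated sample while Tlr4 was lower. Of 8 genes for folding and trafficking of the receptors (medians 0.30 and 0.36), 2 rose in both: Slc15a3, a peptide and histidine transporter of endolysosomes, by 1.88 and 2.47, and the adaptor subunit gene Ap3b1 by 0.76 and 0.61. Slc15a4, which supports Tlr7 and Tlr9 signaling, fell in naïve Mϕ (−0.79, adjusted p = 0.0338) and was at −0.44 (adjusted p = 0.211) in efferocytic Mϕ.

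Of 10 genes that process endosomal receptors or their ligands, 1 rose and 2 fell in each comparison, with medians of −0.03 and 0.18. The nucleases Pld4 and Dnase2a, which degrade the nucleic acids that endosomal TLRs sense, fell with −1.45 (adjusted p = 0.00180) and −1.33 (adjusted p = 0.00454) in naïve Mϕ and −0.77 (adjusted p = 0.0322) and −1.10 (adjusted p = 0.0117) in efferocytic Mϕ. The RNase gene Rnaset2a rose in naïve Mϕ (1.86, adjusted p = 0.0341) and its copy Rnaset2b, named after its values were seen, in efferocytic Mϕ (2.58, adjusted p = 0.0118), and 29.0% of Rnaset2a windows are shared with other genes, mostly Rnaset2b. Rnaset2b had means of 8.23 normalized counts in Ctrl and 3.87 in Eff, the latter from 4 and 6 reads. It passed the filter only through its stimulated samples, so that its call is tied to the filter. Among 6 TIR adaptor genes (medians 0.49 and 0.76), 1 rose in naïve Mϕ, Pik3ap1 (0.98, adjusted p = 0.00634), and 3 in efferocytic Mϕ, Pik3ap1 (0.76, adjusted p = 0.0215) and, named after their values were seen, Myd88 (0.76, adjusted p = 0.0355) and Ticam2 (1.01, adjusted p = 0.0204). Myd88 had 427 and 524 normalized counts (Ctrl), 640.2 and 844 (LPS), 377 and 374 (Eff) and 595 and 679 (LPSEff), and its change of 0.64 (adjusted p = 0.0579) in naïve Mϕ did not pass, with a difference between both effects of 0.12. For Ticam2, 65.3% of exon bases overlap Tmed7 on the same strand. Of 19 kinase and ubiquitin enzyme genes, 10 rose and 1 fell in naïve Mϕ and 10 rose and 2 fell in efferocytic Mϕ, with medians of 0.84 and 0.71. Peli1, a ubiquitin ligase of the IRAK step, rose by 2.99 and 2.63, the kinase genes Ikbke by 1.82 and 1.90 and Map3k8 by 1.71 and 1.73. The genes that fell were Tab1 (−0.72 and −0.87) and, in efferocytic Mϕ, Irak1 (−0.75, adjusted p = 0.0427), named after its values were seen.

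Of 12 transcription factor genes downstream of the receptors, 9 rose and 1 fell in each comparison, with medians of 1.97 and 1.87. Irf7, which drives type I interferon genes, rose by 5.25 in naïve and 5.48 in efferocytic Mϕ, Irf1 by 3.64 and 4.16, and Nfkb2 by 2.74 and 3.08, while Fos changed by −1.39 and −2.14. Windows shared with other genes on either strand made up 38.2% of Irf1, 30.7% of Nfkb2, 31.6% of Dnase2a and 26.7% of Slc15a3. Of 15 negative regulators, 8 rose and 2 fell in naïve Mϕ and 8 rose and 0 fell in efferocytic Mϕ, with medians of 1.45 and 1.87. Tnfaip3, the deubiquitinase A20, rose by 3.77 and 3.70, Socs1 by 2.93 and 2.54 and the NF-κB inhibitor Nfkbia by 2.63 and 2.41. Sigirr and Cd180, a TLR-like surface protein, fell in naïve Mϕ with −1.28 (adjusted p = 0.0319) and −1.04 (adjusted p = 0.00342) and were at −0.36 (adjusted p = 0.535) and −0.53 (adjusted p = 0.0620) in efferocytic Mϕ, with differences between both effects of 0.91 and 0.51, neither called. Of 10 target genes, 9 were tested and 9 rose in each comparison, with medians of 8.36 and 7.62. Among these, Il10 held 1 and 0 reads in Ctrl and in Eff. It passed the filter only through its stimulated samples, so that its rise is tied to the filter. The inducible nitric oxide synthase gene Nos2 rose by 9.60 and 10.73, Il6 by 9.33 and 8.21, and the cyclooxygenase gene Ptgs2 by 8.91 and 7.43.

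Of these genes, 1 of 83 was called in Eff vs Ctrl, against 0.251% of all tested genes, and another in LPSEff vs LPS, against 0.773%, while 0 of 83 were called for a difference between stimulation effects in limma (0 in edgeR and 0 in DESeq2, and 6 at an unadjusted p under 0.05). Medians were −0.13 and −0.05. Ptgs2 had 83.8 and 86.7 normalized counts (Ctrl), 45344 and 37842 (LPS), 235 and 279 (Eff) and 44402 and 44283 (LPSEff). Both Eff samples were above both Ctrl samples, and the stimulated groups overlapped. Ptgs2 rose in Eff vs Ctrl by 1.58 (SE 0.18, adjusted p = 0.0229), and was at 0.10 (adjusted p = 0.931) in LPSEff vs LPS. The call was lost in edgeR (0.0746), with only the compared groups (0.102) and without Ctrl 1 (0.194), Ctrl 2 (0.111), Eff 1 (0.0625), Eff 2 (0.260), LPSEff 1 (0.0726) or LPSEff 2 (0.0712), each value an adjusted p, and in these fits 0 of the 83 genes were called. Il1rl1, the IL-33 receptor ST2 that can restrain TLR signaling, had 30.5 and 56.1 normalized counts (Ctrl), 19.4 and 35.5 (LPS), 136 and 400.1 (Eff) and 708 and 1034 (LPSEff). The LPSEff samples were the highest, followed by Eff, while Ctrl and LPS overlapped. Il1rl1 rose in LPSEff vs LPS by 4.97 (SE 0.54, adjusted p = 0.0140), a call lost without LPSEff 1 (0.127) or LPSEff 2 (0.142), where 0 of the 83 were called, and was at 2.47 (adjusted p = 0.204) in Eff vs Ctrl. Adjusted p for Il1rl1 in Eff vs Ctrl was 0.185 in edgeR and 3.49e-05 in DESeq2, which called it. With the replicate number as a block, limma called Il1rl1 there too (adjusted p = 0.000548). DESeq2 called 3 of the 83 before stimulation, among them Ptgs2 (5.83e-06) and Il1rl1, and 3 during it, among them Il1rl1 (2.82e-20). Over all tested genes, DESeq2 called 175 before and 310 during stimulation.

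Most markers of the fed fibroblasts had higher values with efferocytosis although CD45-positive cells had been isolated. Of the 12 markers (Col1a1, Col1a2, Col3a1, Col5a1, Col6a3, Pdgfra, Pdgfrb, Thy1, Dcn, Lum, Postn and Sparc), 10 were tested and 0 were at 0 in every sample, and their sum was 168 and 381 normalized counts (Ctrl), 790.3 and 852 (LPS), 1999 and 3936 (Eff) and 5860.2 and 5262 (LPSEff). Each efferocytic sample was above each naïve one, and Col1a2, the most abundant per kb, had 7.62 and 39.9 normalized counts (Ctrl), 28.5 and 83.3 (LPS), 582 and 1107 (Eff) and 1913 and 1369 (LPSEff). In Eff vs Ctrl 5 of 10 rose (Col1a1, Col1a2, Col3a1, Col6a3 and Pdgfra), and in LPSEff vs LPS 6 of 10, the same genes and Dcn, with 2 and 6 in edgeR, 6 and 6 in DESeq2 and medians of 4.38 and 4.45. Col3a1 (means of 4.22 in Ctrl and 3.74 in LPS) and Dcn (0.578 and 3.83) passed the filter only through efferocytic samples. Col1a1 (9.88) and Col6a3 (4.05) had means under 10 in Ctrl, so that these counts and medians depend in part on the filter. Of the 10 tested markers, 1 was under 0 in Eff vs Ctrl (Thy1) and 2 in LPSEff vs LPS (Thy1 and Pdgfrb). Pdgfrb had 246 and 245 normalized counts in LPS and 82.3 and 157 in LPSEff. In LPS vs Ctrl 2 of 10 rose (Col5a1 and Pdgfrb), and in LPSEff vs Eff 1 of 10 (Pdgfrb). The neutrophil list (8 genes, 6 tested, 0 at 0 in every sample, Retnlg at no more than 3 reads) had Mmp8 as its most abundant gene per kb and a sum of 6356 and 7887 normalized counts (Ctrl), 5206 and 6187 (LPS), 10473 and 12672 (Eff) and 8352 and 10228 (LPSEff). Mmp8 made up most of this sum, and without it the sum was 1097 and 715 normalized counts (Ctrl), 1826 and 2182 (LPS), 1599 and 1134 (Eff) and 2617 and 1857 (LPSEff), and Eff lay above Ctrl without overlap while LPSEff and LPS overlapped. The list medians were 0.35 before and −0.03 during stimulation, with 1 and 3 of 6 genes under 0. S100a8, named after its values were seen, rose in Eff vs Ctrl by 1.24 (adjusted p = 0.0402), where limma called 1 of 6 genes, edgeR 0 and DESeq2 1, and S100a9, likewise named after its values were seen, was at −0.02 (adjusted p = 0.999). In LPSEff vs LPS limma, edgeR and DESeq2 called 0, 0 and 0 of 6, with 2 at an unadjusted p under 0.05, and limma called 3 in LPS vs Ctrl (S100a8, Ngp and Camp) and 1 in LPSEff vs Eff (Camp). Of the 8 Mϕ markers, 2 rose in LPS vs Ctrl (Adgre1 and Mertk) and 3 in LPSEff vs Eff (Adgre1, Mertk and Fcgr1), and 0 were called in either comparison of efferocytosis by limma, edgeR or DESeq2, with 0 at an unadjusted p under 0.05. The part of fibroblast or neutrophil RNA in the values of Ptgs2, Il1rl1 or the TLR genes was not tested.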

How the data were processed

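Adapters were removed from the single-end reads with cutadapt and rRNA reads with bowtie2, and STAR (genome mm39) and htseq-count gave counts (versions and annotation not stated). The authors deposited a signal per gene, the count divided by a DESeq2 size factor. In each sample 100% of values were whole multiples of the smallest nonzero value (tolerance 0.01), which gave back the reads. GENCODE M39 on GRCm39 named 98.9% of genes.

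Genes with a mean of at least 10 were tested with limma 3.58.1 (R 4.3.3, trend) on log2(normalized count + 1), with 4 group means in 1 fit, 4 residual degrees of freedom and Benjamini-Hochberg adjustment over all tested genes. With 2 against 2 samples, the smallest exact p is 0.333. Alternatives were a pseudocount of 5, no filter, only the compared groups, a replicate block, equal totals, edgeR 4.0.16 with TMM, DESeq2 1.42.0, each sample left out, and the longest transcript as length. The methods were also run on simulated data, and the outcome is not reported here.

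The members and the 9 pathway lists (1 of them Tlr11 and Tlr12) and 8 marker lists were chosen with earlier results of these data known. Named were all members, pathway genes called with efferocytosis, each list's 3 largest called rises and falls in LPS vs Ctrl, the gene nearest to each member and the most abundant marker per list. Shared sequence came from 50-base windows of GENCODE transcripts, promoters from RefSeq (GRCm38.p6). Set tests were not run. The promoter search for 1 further motif is not reported here.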

Additional observations from a re-analysis of the deposited data

How the results depend on the processing

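Of 740 values of the 10 members under the alternatives, 669 kept their direction and their side of the threshold, 38 lost and 7 gained a call, and 26 changed sign without being called, 24 of them with a sample left out. The cause of these changes was not tested. With only the compared groups in the fit, which gives no difference of effects, 4 members were called in LPS vs Ctrl, 0 pathway genes and 9 genes of all in Eff vs Ctrl, and 66 genes in LPSEff vs LPS. With no filter on low values, 79 genes were called in Eff vs Ctrl. With equal totals, 5578 genes were called in LPSEff vs Eff, Tlr7 was at −0.00727 there and Tlr8 at −0.0124 in the difference of effects. EdgeR called 0 pathway genes and 14 genes in Eff vs Ctrl. DESeq2 called 3 pathway genes and 175 genes in Eff vs Ctrl, against 3 pathway genes and 310 genes in LPSEff vs LPS. With the longest transcript as length, 7 members held their place per kb.

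The labels and methods do not say what samples with the same replicate number share, and across genes, which are not independent, the differences between samples 1 and 2 correlated between groups with r of 0.404 to 0.595. With that number as a block, 6717 genes were called in LPS vs Ctrl, 6033 in LPSEff vs Eff, 436 in Eff vs Ctrl, with 10 pathway genes and 1 member, and 1137 in LPSEff vs LPS, with 12 pathway genes and 1 member. The member was Tlr9 in both (adjusted p = 0.0367 and 0.0160), while Tlr7 (0.0183 and 0.0295) passed in both LPS/IFNγ comparisons and Tlr13 (0.0413) in LPSEff vs Eff.

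Where a sample was left out, the lone sample of its group was assumed to vary like the other groups. This gave 3 to 7 members in LPS vs Ctrl and 3 to 6 in LPSEff vs Eff, and 31 to 49, 0 to 1 and 0 to 1 pathway genes for LPSEff vs Eff, Eff vs Ctrl, LPSEff vs LPS. Over all genes, LPS vs Ctrl had 2076 (without Ctrl 1) to 3562, with 2233 without Ctrl 2. LPSEff vs Eff had 1567 (without Eff 1) to 3407, with 1790.0 without Eff 2, 1593 without LPSEff 1 and 2037 without LPSEff 2. Eff vs Ctrl had 0 (without Eff 2) to 45, with 4 without Ctrl 1, 8 without Ctrl 2, 9 without LPSEff 1 and 9 without LPSEff 2. LPSEff vs LPS had 0 (without LPSEff 1) to 84, with 6 without LPSEff 2, 17 without LPS 2, 56 without LPS 1, 60 without Ctrl 2, 63 without Ctrl 1 and 73 without Eff 2. In the order per kb, 8 to 10 members held their place.

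With a sample left out, these log2 fold changes crossed 0 (lowest to highest value, then each value of the other sign). In Eff vs Ctrl they were those of Tlr2 (−0.267 to 0.223; 0.0416 without Ctrl 1, 0.223 without Eff 2), Tlr3 (−0.406 to 0.148; 0.148 without Ctrl 2, 0.0462 without Eff 1), Tlr4 (−0.270 to 0.0273; 0.0273 without Eff 1), Tlr5 (−0.829 to 0.0264; 0.0264 without Ctrl 2) and Tlr6 (−0.410 to 0.270; 0.270 without Ctrl 2, 0.0838 without Eff 1). In LPSEff vs LPS they were Tlr4 (−0.0926 to 0.366; −0.0926 without LPSEff 2), Tlr8 (−0.227 to 0.771; −0.227 without LPSEff 2) and Tlr13 (−0.154 to 0.706; −0.154 without LPS 1), and in LPSEff vs Eff Tlr8 (−0.870 to 0.129; 0.129 without LPSEff 1). In the difference of effects they were Tlr7 (−0.153 to 0.0751; 0.0310 without Ctrl 2, 0.0706 without LPS 2, 0.00146 without Eff 2, 0.0751 without LPSEff 1), Tlr8 (−0.462 to 0.536; −0.179 without Ctrl 1, −0.0782 without LPS 1, −0.462 without LPSEff 2), Tlr9 (−0.676 to 0.520; 0.117 without Ctrl 1, 0.520 without LPS 2, 0.131 without Eff 2, 0.440 without LPSEff 1) and Tlr13 (−0.0277 to 0.832; −0.0277 without LPS 1). Others moved by over 1.5 times without a change of sign: Tlr8 (0.02 to 0.45) and Tlr13 (−0.17 to −0.08) for Eff vs Ctrl, Tlr3 (0.17 to 0.35) and Tlr6 (0.16 to 0.62) for LPSEff vs LPS, and Tlr2 (0.35 to 0.97), Tlr3 (0.11 to 0.66) and Tlr6 (0.12 to 0.80) for the difference of effects. Such ranges of further members stand beside their values in the report.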

Other observations

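Some pathway genes had an unadjusted p under 0.05 and the same sign in both comparisons of efferocytosis without passing in limma with the 4 group means. The following were named after their values were seen. At this level, limma gave 14 of 83 pathway genes before stimulation, against 6.13% of all tested genes, and 11 of 83 during it, against 10.3%. Ctsl, the cathepsin L that cleaves endosomal TLRs, had 4145 and 5000.1 normalized counts (Ctrl), 3521 and 6693 (LPS), 8916 and 7761 (Eff) and 7833 and 12689.9 (LPSEff). Its efferocytic samples were above their naïve counterparts, with 0.87 (adjusted p = 0.730) for Eff vs Ctrl and 1.04 (adjusted p = 0.317) for LPSEff vs LPS, and 24.5% of its windows are shared with other genes. Ikbkg, the NEMO subunit of the IκB kinase, had 470.3 and 647 normalized counts (Ctrl), 967 and 1012 (LPS), 848 and 1126 (Eff) and 1989 and 1745 (LPSEff). Each efferocytic group was above its naïve counterpart, with 0.82 (adjusted p = 0.370) and 0.91 (adjusted p = 0.155) in the same order. Relb, an NF-κB subunit, had 442 and 401 normalized counts (Ctrl), 1392 and 1786 (LPS), 236 and 217 (Eff) and 1247 and 920.1 (LPSEff). It was lower in each efferocytic group than in its naïve counterpart, with −0.89 (adjusted p = 0.273) and −0.56 (adjusted p = 0.416). Il12b, the shared subunit of IL-12 and IL-23, had 110.4 and 179.9 normalized counts (Ctrl), 19966 and 29324 (LPS), 33.3 and 69.2 (Eff) and 7089 and 13201 (LPSEff). Its efferocytic samples were again the lower ones, with −1.53 (adjusted p = 0.390) and −1.32 (adjusted p = 0.307).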
